A study of Homo sapiens with 22 samples.

Results

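The genes described here are 52 human genes of homologous recombination, Fanconi repair and the end-joining and checkpoint routes that run beside them. They were chosen by name, with no threshold on a measured value, and make up 52 of the 37908 genes counted (29629 of which had a symbol). All 52 were found, and each had at least 44.1 normalised counts (counts divided by a factor that evens out library size) in every library, so none was lost to the filter on low counts. The question was whether cells that lose BRCA2 change the level of other repair genes, in particular whether any rises.

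Poly(A) RNA was sequenced from H1299, an established human line of non-small cell lung cancer, in which doxycycline (DOX) switches on an shRNA that targets BRCA2. BRCA2-proficient cells were grown without DOX and BRCA2-deficient cells with 2 µg/mL DOX for 3 days, and every culture carried the shRNA. Each background received either a control siRNA or one that targets β-catenin (siβ-catenin), and was left without inhibitor or given 250 nM LY2090314, an inhibitor of GSK3 (GSK3i), for 24 h. The 8 groups held 22 libraries, 10 BRCA2-proficient and 12 BRCA2-deficient: 2 each for BRCA2-proficient untreated and siβ-catenin cells (numbered 2 and 3) and 3 for every other group. "Untreated" means control siRNA and no GSK3i. No culture had DOX without BRCA2 depletion, so the effects of DOX, of any other target of the shRNA and of BRCA2 loss cannot be told apart. The study describes the libraries as independent experiments, in which a parental culture was split at random into the treated cultures.

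Homologous recombination copes with broken and stalled replication forks by copying the sister chromatid. Nucleases resect the broken end, BRCA1 with BARD1 and PALB2 bring in BRCA2, and strand exchange with the sister chromatid follows, assisted by mediator and RAD54 proteins. The Fanconi proteins signal crosslinked DNA through ubiquitylation of FANCD2 and FANCI, and helicases undo the joined molecules. Breaks that are not resected are closed by Ku and DNA-PK, and end joining by the back-up polymerase POLQ is a separate route. Many of these genes are transcribed mainly in the S and G2 phases of the cell cycle, so S-phase and G2/M gene lists are given beside them.

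Library totals ran from 18.9 to 29.3 M counts (median 23.2 M). The keratins KRT8 (2037 to 8200 normalised counts) and KRT18 (5068 to 12950) marked every library as epithelial, whereas KRT19 (0.0 to 5.77), EPCAM (1.14 to 22.2) and the surfactant genes SFTPB and SFTPC (at most 1.51) and NAPSA (0.0 to 9.21) were at or near 0, and the lung lineage factor NKX2-1 was low (19.8 to 108). Of the markers of other cell types, the leukocyte gene PTPRC reached at most 1.57, the monocyte gene CD14 19.1 and the hepatocyte gene ALB 7.85. CTNNB1, which encodes β-catenin, lay between 977 and 2217 in the libraries with siβ-catenin and between 5206 and 8669 in those without. The GSK3i labels of 3 BRCA2-proficient libraries are in doubt. This was read from a score, the mean log2(normalised count + 1) of 204 genes raised by GSK3i in both backgrounds minus that of 386 genes lowered, chosen after the data were seen. Since the control siRNA libraries of both backgrounds chose these genes, their own scores are no check, and only those with siβ-catenin are. It was -0.27 and -0.23 in the untreated and 2.68 to 2.7 in the GSK3i libraries of BRCA2-proficient cells. The library labelled BRCA2-proficient siβ-catenin replicate 2 scored 1.89, beside 1.92 and 1.99 in GSK3i + siβ-catenin replicates 1 and 3. The library labelled GSK3i + siβ-catenin replicate 2 scored -0.22, so both of these went against their label. The library labelled siβ-catenin replicate 3 lay between at 0.58, nearer to the libraries without GSK3i. The 6 BRCA2-deficient libraries with siβ-catenin scored as labelled, at most -0.08 without and at least 1.42 with GSK3i. AXIN2, a target of β-catenin, gave a mixed picture. It rose from 82.4 and 72.3 to between 1027 and 1153 normalised counts with GSK3i in BRCA2-proficient cells, and was at 145 and 117 in GSK3i + siβ-catenin replicates 1 and 3 but 73.1 in replicate 2. It was at 67.2 and 65.0 in the libraries labelled siβ-catenin replicates 2 and 3, as their labels say. No library was relabelled, and results that rest on these 3 are given with and without them.

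The promoters of 3 genes are shown, because BARD1 and XRCC6 fell with BRCA2 in each of the 4 treatments and XRCC3 rose most with GSK3i in BRCA2-proficient cells. The lines give the 250 bases before the annotated start in RefSeq (GRCh38.p14, 5′ to 3′ on the gene's strand), with any CCAAT box (CCAAT or its reverse complement) in capitals. They lie at chr2:214809684-214809933 (minus strand), chr22:41621045-41621294 (plus strand) and chr14:103715452-103715701 (minus strand).
BARD1: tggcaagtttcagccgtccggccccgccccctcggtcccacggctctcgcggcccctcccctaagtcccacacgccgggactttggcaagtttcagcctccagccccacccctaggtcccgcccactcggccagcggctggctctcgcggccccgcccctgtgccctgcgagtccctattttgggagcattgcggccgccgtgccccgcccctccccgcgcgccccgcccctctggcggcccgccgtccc
XRCC6: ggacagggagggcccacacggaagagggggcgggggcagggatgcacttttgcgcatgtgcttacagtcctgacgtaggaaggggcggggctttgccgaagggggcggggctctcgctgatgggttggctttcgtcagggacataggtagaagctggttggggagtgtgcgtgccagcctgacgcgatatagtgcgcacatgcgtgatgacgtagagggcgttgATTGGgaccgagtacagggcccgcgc
XRCC3: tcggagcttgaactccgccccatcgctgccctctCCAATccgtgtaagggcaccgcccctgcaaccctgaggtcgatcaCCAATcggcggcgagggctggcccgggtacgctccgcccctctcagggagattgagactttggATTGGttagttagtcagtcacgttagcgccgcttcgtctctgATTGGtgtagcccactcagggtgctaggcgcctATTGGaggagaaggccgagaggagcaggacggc
BARD1 held 0 CCAAT boxes, XRCC6 held 1 and XRCC3 held 5. RefSeq gave promoters (250 bases before to 50 after the start) for 43 of the 52 genes, 63 promoters in all. An E2F-type motif (TTTGGCGC, TTTCCCGC, TTTCGCGC or TTTGCCGC, on either strand) was in 8 of the 63, or 12.7%, against 3.31% of 35116 human promoters. The 8 belonged to EXO1, FANCA, FANCC, FANCD2, RMI1, TOPBP1, XRCC2 and XRCC6. The motif counted for XRCC6 does not lie within the 250 bases shown above. CCAAT, the letters bound by NF-Y, was in 44.4% against 34.6%. The CHR element TTTGAA of late cell-cycle genes was in 12.7% against 15.2%. No promoter was found for RAD54B, NBN, DNA2, WRN, RECQL4, RMI2, FANCI, XRCC5 or PRKDC.

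Per kilobase of the canonical transcript and averaged over the libraries, 3 genes of classical end joining were the most abundant. XRCC6 and XRCC5, the subunits of Ku, had 4467 and 3595 normalised counts per kb, and PRKDC, the catalytic subunit of DNA-PK, had 2241. XRCC3 followed at 1507 and PARP1, the break sensor, at 1149, but in untreated cells PARP1 (1240 BRCA2-proficient, 954 BRCA2-deficient) was not below XRCC3 (1180 and 909). The reads of XRCC3 are uncertain, because 76.7% of its exon bases overlap KLC1 on the other strand and the strand setting of the counting is not given in the sources used here. The same holds in part for TP53BP1 (28.8%), RAD54L (19.9%), FANCA (19.6%) and CHEK1 (13.4%). At the low end stood BRCA2 (35.3), FANCF (21.7) and RAD51D (18.0).

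BRCA2 itself was examined first, since it checks the labels. It lies on chromosome 13 (32889223 to 32974405, GRCh37, plus strand). Untreated BRCA2-proficient libraries had 847 and 695 normalised counts and untreated BRCA2-deficient libraries 71.4, 116 and 179. Over all treatments the 10 BRCA2-proficient libraries ran from 514 to 1111 (median 754) and the 12 BRCA2-deficient ones from 71.4 to 225 (median 112), so the backgrounds did not overlap. The log2 fold change over all treatments was -2.52 ± 0.19 (SE, DESeq2 adjusted p = 1.76e-39), and it was -2.67, -2.14, -3.32 and -2.16 in untreated, GSK3i, siβ-catenin and GSK3i + siβ-catenin cells. The fit over all treatments took its libraries as independent. Same-numbered BRCA2-deficient libraries deviated together across treatments, so its SEs, intervals and adjusted p, here and below, may be too small.

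None of the 52 genes was called higher when BRCA2 was depleted. Calls required an adjusted p under 0.05 together with a log2 fold change beyond 0.5 in size. Over all treatments, with treatment in the model, 0 of the 52 were called higher, where 11.4% of all 18409 genes tested were, and 20 were called lower, where 7.22% of all genes were. BRCA2, the target of the shRNA, was among the 20, and without it 19 of 51 were lower. At an adjusted p under 0.05 alone, 40 of the 52 were lower, as were 3497 of all 18409 genes. A gene not called can thus have passed the test and missed the fold limit. None of the 52 was higher at an unadjusted p under 0.05 either, and edgeR called 21, all lower. The median log2 fold change of the 52 was -0.39 against 0.02 for all genes, and 49 of the 52 were negative. The highest was 0.07, for TP53BP1, and the upper 95% bound of every one of the 52 was below 0.5, the highest being 0.31. These bounds take the libraries as independent. Without the 2 libraries that went against their label, 21 were called lower (6.8% of all genes), the same 20 and EXO1, and 0 higher (11.6% of all genes). Without all 3 libraries in doubt, 13 were called lower (5.52% of all genes) and 0 higher (9.09% of all genes), with the highest upper bound at 0.43. With the control siRNA libraries alone, 9 were lower (4.86% of all genes) and 0 higher (6.65%). BRCA2 is counted among the lower genes in each of these fits.

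**Figure D1:**
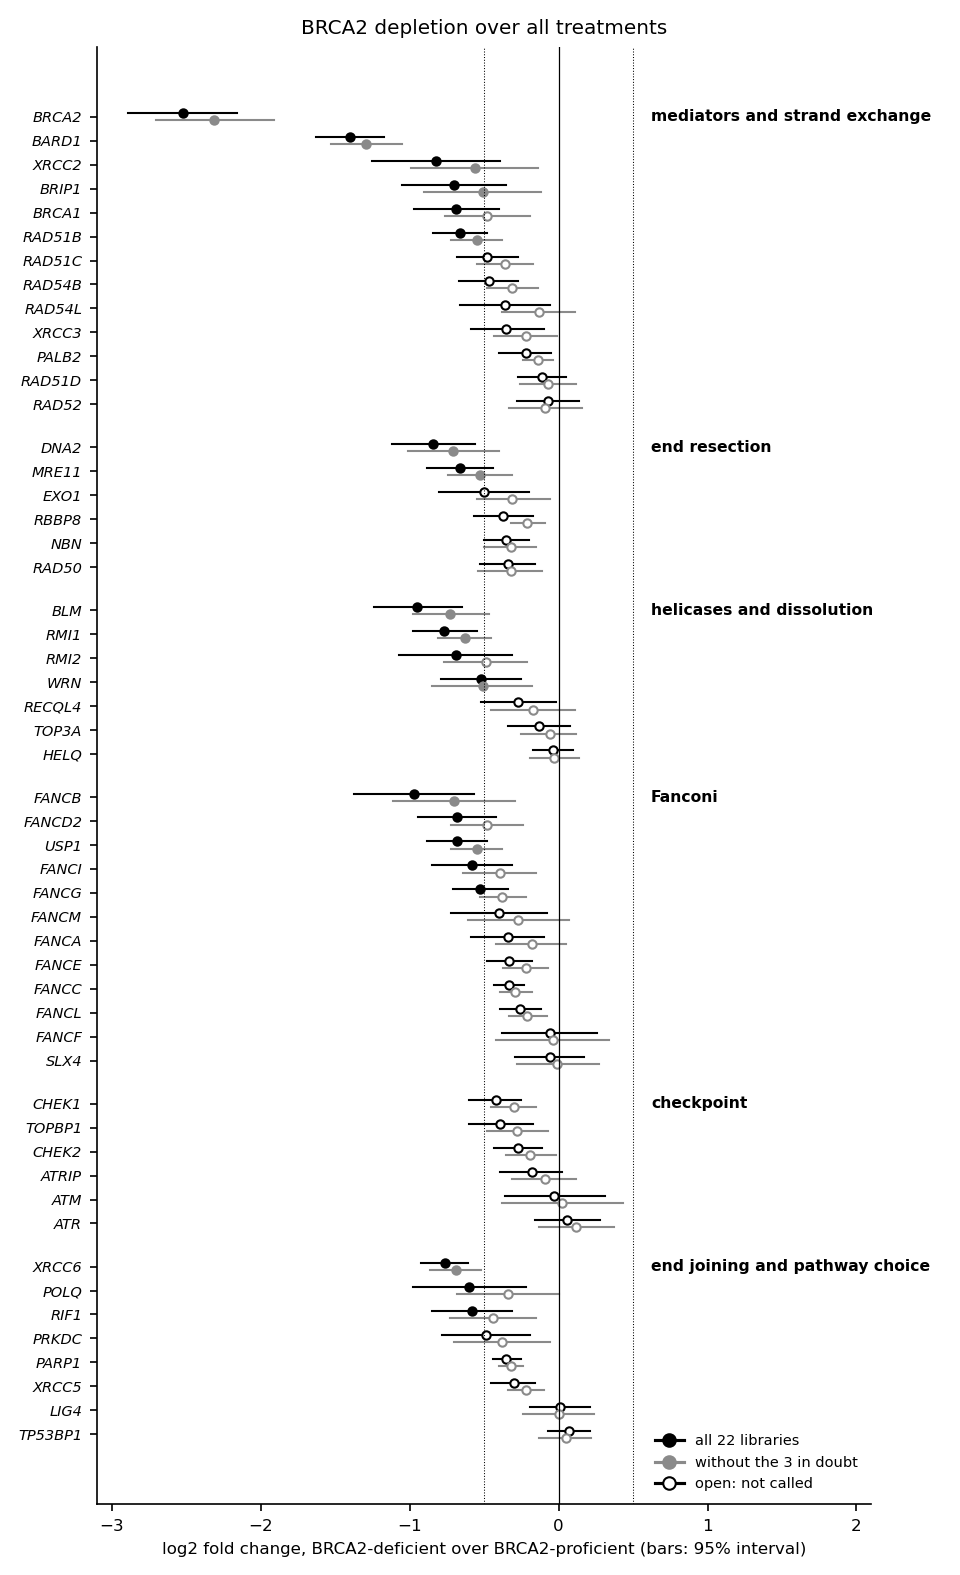
Log2 fold change of each of the 52 repair genes, BRCA2-deficient over BRCA2-proficient cells over all treatments (x axis), by role. Points are estimates and bars 95% intervals, black for all 22 libraries and grey without the 3 libraries in doubt, filled where called; 20 black points and 13 grey ones are filled, all to the left of 0.

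Cell-cycle genes moved with them. Of 19 S-phase genes 13 were lower and of 20 G2/M genes 20 were lower over all treatments, with medians of -0.62 and -0.88. The mean log2 level of the 51 repair genes other than BRCA2, set relative to untreated BRCA2-proficient cells, was -0.7, -0.41 and -0.23 in the untreated BRCA2-deficient libraries. In the same libraries the S-phase list was at -0.76, -0.62 and -0.54 and the G2/M list at -1.3, -0.85 and -0.79. With GSK3i the BRCA2-deficient libraries had -0.17, 0.03 and 0.05 for the repair genes and 0.15, 0.02 and -0.06 for the S-phase list, near the level of untreated BRCA2-proficient cells, whereas the G2/M list was at -0.78, -0.56 and -0.59. The BRCA2-proficient GSK3i libraries were higher in each list, at 0.08, 0.14 and 0.3 for the repair genes, 0.27, 0.25 and 0.2 for S phase and -0.29, -0.2 and -0.1 for G2/M. The lowest value of each list was in a BRCA2-deficient siβ-catenin library, at -0.75, -1.45 and -1.77. Among the libraries of the control siRNA groups, the untreated BRCA2-deficient ones were below every BRCA2-proficient one in each list. The part of the cell cycle in the change of the repair genes was not tested. In bulk RNA, fewer cells that express a gene and less RNA per cell cannot be told apart.

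**Figure D2:**
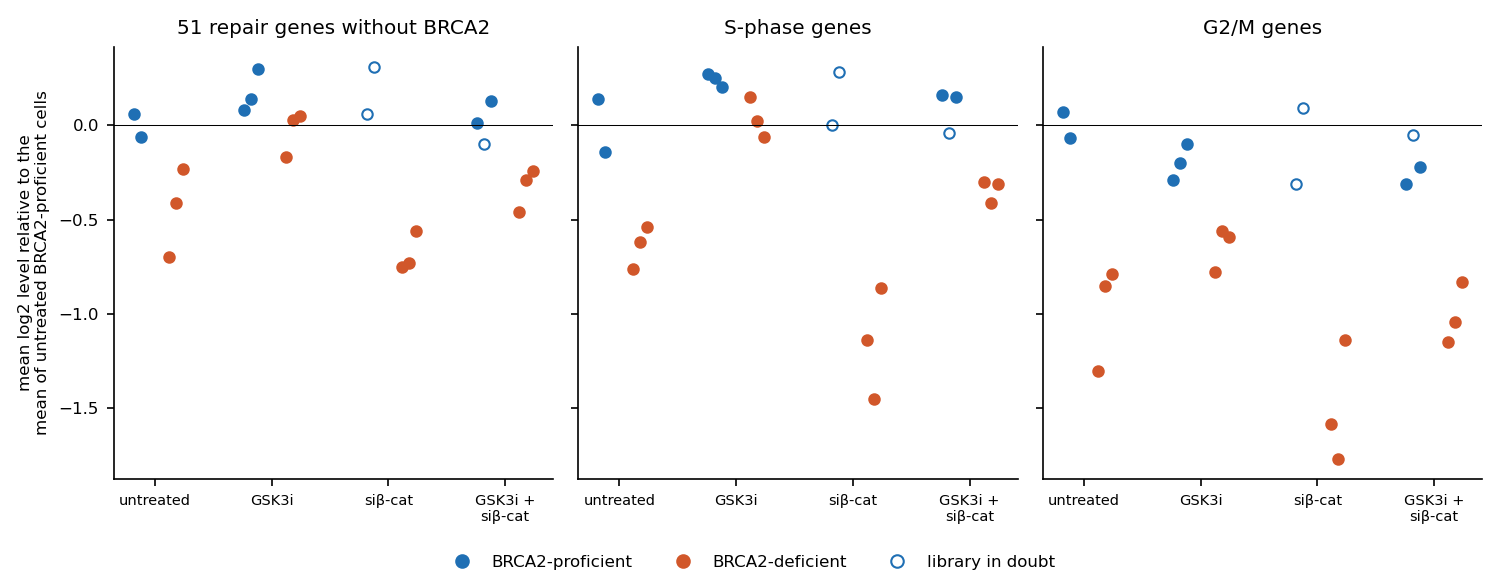
Mean log2 level of 51 repair genes, 19 S-phase genes and 20 G2/M genes in each library (y axis), relative to the mean of untreated BRCA2-proficient cells, by treatment (x axis). Each point is a library, blue BRCA2-proficient and orange BRCA2-deficient, open where the library is in doubt; the repair genes of BRCA2-deficient cells sit at -0.7 to -0.23 untreated and -0.17 to 0.05 with GSK3i.

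Among the mediators of strand exchange, 6 of 13 were lower over all treatments. BARD1, the partner of BRCA1 in its ubiquitin ligase, had the lowest estimate of the 52 after BRCA2. It lies on chromosome 2 (215590370 to 215674407, GRCh37, minus strand). Untreated BRCA2-proficient libraries had 693 and 553 normalised counts of BARD1 and BRCA2-deficient ones 154, 244 and 268. With GSK3i the values were 462, 517 and 618 against 197, 276 and 237, and with GSK3i + siβ-catenin 484, 542 and 579 against 199, 221 and 246. The 10 BRCA2-proficient libraries (462 to 759) and the 12 BRCA2-deficient ones (154 to 276) did not overlap. The log2 fold change was -1.40 ± 0.12 (adjusted p = 1.37e-30), -1.29 ± 0.12 without the 3 libraries, and -1.51, -1.17, -1.77 and -1.27 in the 4 treatments. BARD1 was called in all 22 fits over all treatments that left out 1 library. BRCA1 itself, with 1177 and 1013 normalised counts against 447, 589 and 826 in untreated cells, had -0.69 ± 0.15 over all treatments (adjusted p = 2.25e-05) and was not called without the 3 libraries (-0.48 ± 0.14). With GSK3i BRCA1 was at 770, 860 and 1068 against 631, 783 and 968, where the groups overlap.

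PALB2, the bridge from BRCA1 to BRCA2, had 470 and 457 normalised counts in untreated BRCA2-proficient and 390, 434 and 443 in untreated BRCA2-deficient cells. Its log2 fold change over all treatments was -0.22 ± 0.09, short of the threshold. RAD51B, a mediator of strand exchange, changed by -0.66 ± 0.09, XRCC2, another, by -0.82 ± 0.22, and BRIP1, the helicase that binds BRCA1, by -0.70 ± 0.18. Without the 3 libraries in doubt they were still called, at -0.55 ± 0.09, -0.56 ± 0.22 and -0.51 ± 0.20. With the control siRNA libraries alone, RAD51B (-0.45), XRCC2 (-0.52) and BRIP1 (-0.53) were not called. The mediators RAD51C (-0.48 ± 0.10) and RAD51D (-0.11 ± 0.08) were not called. RAD52, whose strand annealing can stand in for BRCA2, was called in none of the 15 comparisons made. Its libraries ran from 358 to 569 (median 407) in BRCA2-proficient and 267 to 532 (median 415) in BRCA2-deficient cells, and its log2 fold change was -0.07, with a 95% interval of -0.28 to 0.14.

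Of the 6 end resection genes, DNA2 (nuclease-helicase) and MRE11 (nuclease) were lower, by -0.84 ± 0.14 and -0.66 ± 0.11, and both were also lower without the 3 libraries. Their partners were not called: EXO1, the exonuclease of long-range resection, at -0.50 ± 0.15, RBBP8 (CtIP) at -0.37 ± 0.10, NBN at -0.35 ± 0.08 and RAD50 at -0.34 ± 0.09. All 6 genes were lower at an adjusted p under 0.05, so these partners missed the fold limit alone. The subunits of the MRE11-RAD50-NBN complex thus had different estimates, and a difference between them was not tested. MRE11 had 789 and 700 normalised counts in untreated BRCA2-proficient and 356, 514 and 554 in untreated BRCA2-deficient cells.

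The BLM dissolvasome, which takes apart double Holliday junctions, held called and uncalled genes, and a difference between them was not tested. BLM, its helicase, had 716 and 616 normalised counts in untreated BRCA2-proficient against 273, 289 and 436 in BRCA2-deficient cells, and changed by -0.95 ± 0.15 over all treatments (adjusted p = 5.25e-09). RMI1, its scaffold, changed by -0.77 ± 0.11 and RMI2 by -0.69 ± 0.19, whereas TOP3A, its topoisomerase, was at -0.13 ± 0.11. Without the 3 libraries BLM (-0.73 ± 0.13) and RMI1 (-0.63 ± 0.09) were called and RMI2 (-0.49 ± 0.14) was not. Of the other helicases, WRN was lower at -0.52 ± 0.14 (-0.51 ± 0.17 without the 3 libraries), and RECQL4 (-0.27 ± 0.13) and HELQ (-0.04 ± 0.07) were not called.

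Among 12 Fanconi genes 5 were lower over all treatments. These were FANCB of the core complex (-0.97 ± 0.21), FANCD2 (-0.68 ± 0.13) and FANCI (-0.58 ± 0.14), which are ubiquitylated together, USP1 (-0.68 ± 0.10), which removes that ubiquitin, and FANCG of the core complex (-0.53 ± 0.09). Without the 3 libraries FANCB and USP1 were called, and FANCD2 (-0.48 ± 0.12), FANCI (-0.39 ± 0.13) and FANCG (-0.38 ± 0.08) were not. FANCC, another core member, was not called at -0.33 ± 0.05. Its ranges did not overlap, at 889 to 1051 in BRCA2-proficient and 644 to 801 normalised counts in BRCA2-deficient libraries. BRCA2, BARD1 and FANCC were the 3 genes of the 52 with every BRCA2-deficient library below every BRCA2-proficient one, as were 1.6% of all genes, and 0 were the other way, as were 0.771%. Of these 3, BRCA2 was the target of the shRNA, so its fall was set by the design. FANCF, with the lowest counts of the 52, had 44.1 and 61.9 against 76.2, 72.6 and 75.7 in untreated cells and was not called (0.47 there, with an interval up to 1.13).

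None of the 6 checkpoint genes was called over all treatments. The kinases ATM and ATR were at -0.03 ± 0.17 and 0.06 ± 0.11, and CHEK1, the effector kinase of ATR, was at -0.42 ± 0.09. In end joining, XRCC6 (Ku70, chromosome 22, 42017167 to 42060052, GRCh37, plus strand) was lower in each treatment. Untreated libraries had 11353 and 10052 normalised counts of XRCC6 against 7537, 7468 and 6208. With GSK3i they had 14380, 12904 and 13188 against 10296, 8224 and 7268. XRCC6 was called in 2 of the 5 fits of untreated cells that left out 1 library. Within each treatment the backgrounds did not overlap, and over all of them they met only where the highest BRCA2-deficient library (10296) passed the lowest BRCA2-proficient one (10052). The log2 fold change was -0.76 ± 0.08 over all treatments (adjusted p = 1.42e-20), -0.69 ± 0.09 without the 3 libraries, and -0.62, -0.66, -1.06 and -0.79 in the 4 treatments. Its partner XRCC5 (Ku80), of like abundance, was not called at -0.30 ± 0.07, nor was PRKDC at -0.49 ± 0.15. Untreated XRCC5 had 12083 and 10454 against 10263, 10949 and 9818, which overlap.

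The back-up routes gave no gene that rose. POLQ, the polymerase of theta-mediated end joining, had 1204 and 1166 normalised counts in untreated BRCA2-proficient against 451, 646 and 1108 in BRCA2-deficient cells. It was lower over all treatments (-0.60 ± 0.20) and not without the 3 libraries (-0.34 ± 0.18). PARP1 had 5113 and 4716 against 3670, 3840 and 3872, a log2 fold change over all treatments of -0.35 ± 0.05 (adjusted p = 3.68e-11), past the test but under the fold limit. RIF1, which shields ends from resection, was lower at -0.58 ± 0.14 and was not called without the 3 libraries (-0.44 ± 0.15), and TP53BP1, which recruits RIF1, was at 0.07 ± 0.07. LIG4, the ligase of classical end joining, was at 0.01 ± 0.10.

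**Figure D3:**
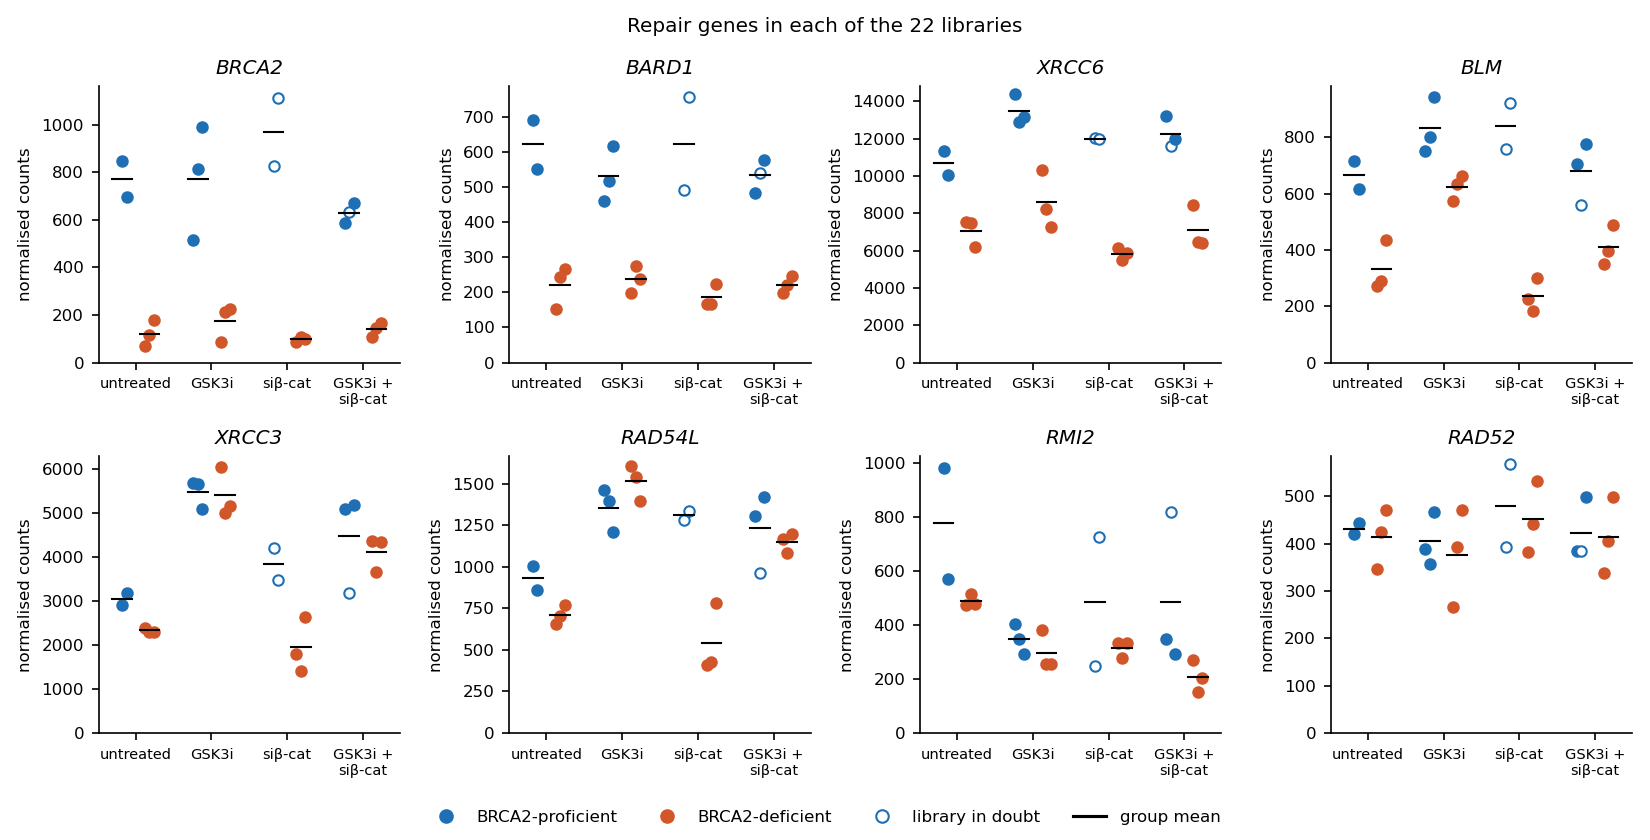
Normalised counts (y axis, from 0) of 8 repair genes in each of the 22 libraries, by treatment (x axis). Each point is a library, blue BRCA2-proficient and orange BRCA2-deficient, open where the library is in doubt, with the group mean as a line. BRCA2 and BARD1 separate the backgrounds in every treatment, and the RAD52 groups overlap. Among control siRNA libraries of either background, XRCC3 and RAD54L are higher and RMI2 lower with GSK3i.

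The number of genes lower with BRCA2 depletion is given by treatment, and these counts do not test a difference between treatments. The interaction of BRCA2 depletion and GSK3i, given below, was called for none of the 52. An interaction of BRCA2 depletion with siβ-catenin was not fitted. In untreated cells 10 of the 52 were lower (4.14% of all genes) and 0 higher (2.77%). These were BRCA2, BARD1, BLM, XRCC6, USP1, RMI1, RECQL4, BRCA1, FANCI and RAD51B, or 9 of 51 without BRCA2, the target of the shRNA. The count rests on single libraries, as edgeR called 2 (BRCA2 and BARD1) and DESeq2 called 2 without BRCA2-proficient replicate 2, 3 without BRCA2-proficient replicate 3, 2 without BRCA2-deficient replicate 2 and 25 without BRCA2-deficient replicate 3. The 12 S-phase and 20 G2/M genes lower there were of 19 and 20. With GSK3i 3 of the 52 were lower (BRCA2, BARD1 and XRCC6, against 3.05% of all genes) and 0 higher (3.76%), and 1 S-phase and 5 G2/M genes were lower. The 3 were called in each fit that left out 1 library and by edgeR. Without BRCA2, 2 of 51 were lower, a share near that of all genes.

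With GSK3i + siβ-catenin 11 were lower (10 of 51 without BRCA2, against 4.36% of all genes) and 0 higher (3.38%). Those of lowest adjusted p were BRCA2, BARD1, XRCC6, FANCG, RAD51B and RMI1, and edgeR called 6. Without the library labelled BRCA2-proficient replicate 2 the count was 11, but RMI2 moved from -1.23 to -0.64 (adjusted p = 0.104), and without BRCA2-proficient replicate 3 it was 7. With siβ-catenin alone 37 were lower (36 of 51 without BRCA2, against 13.8% of all genes) and 0 higher (13.6%). Those of lowest adjusted p were BRCA2, BLM, XRCC6, XRCC2, USP1 and BARD1. Also lower were 19 of 19 S-phase and 20 of 20 G2/M genes. Both BRCA2-proficient libraries of that comparison are in doubt. Without replicate 2, which went against its label, 39 were lower, and without replicate 3, 32, each fit assuming that the lone library varies like the others. BRCA2, BARD1 and XRCC6 were lower in all 4 treatments, BLM, RMI1 and RAD51B in 3, 7 genes in 2, 26 in 1 and 13 in 0. The 13 included RAD52, PARP1, WRN, NBN, ATM, ATR and TP53BP1, and 38 of the 52 had negative estimates in all 4. This tally leans on the siβ-catenin comparison, where 37 were lower and the BRCA2-proficient libraries are in doubt. The same tally over all genes was not made, so it is not shown to be particular to the repair genes.

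**Figure D4:**
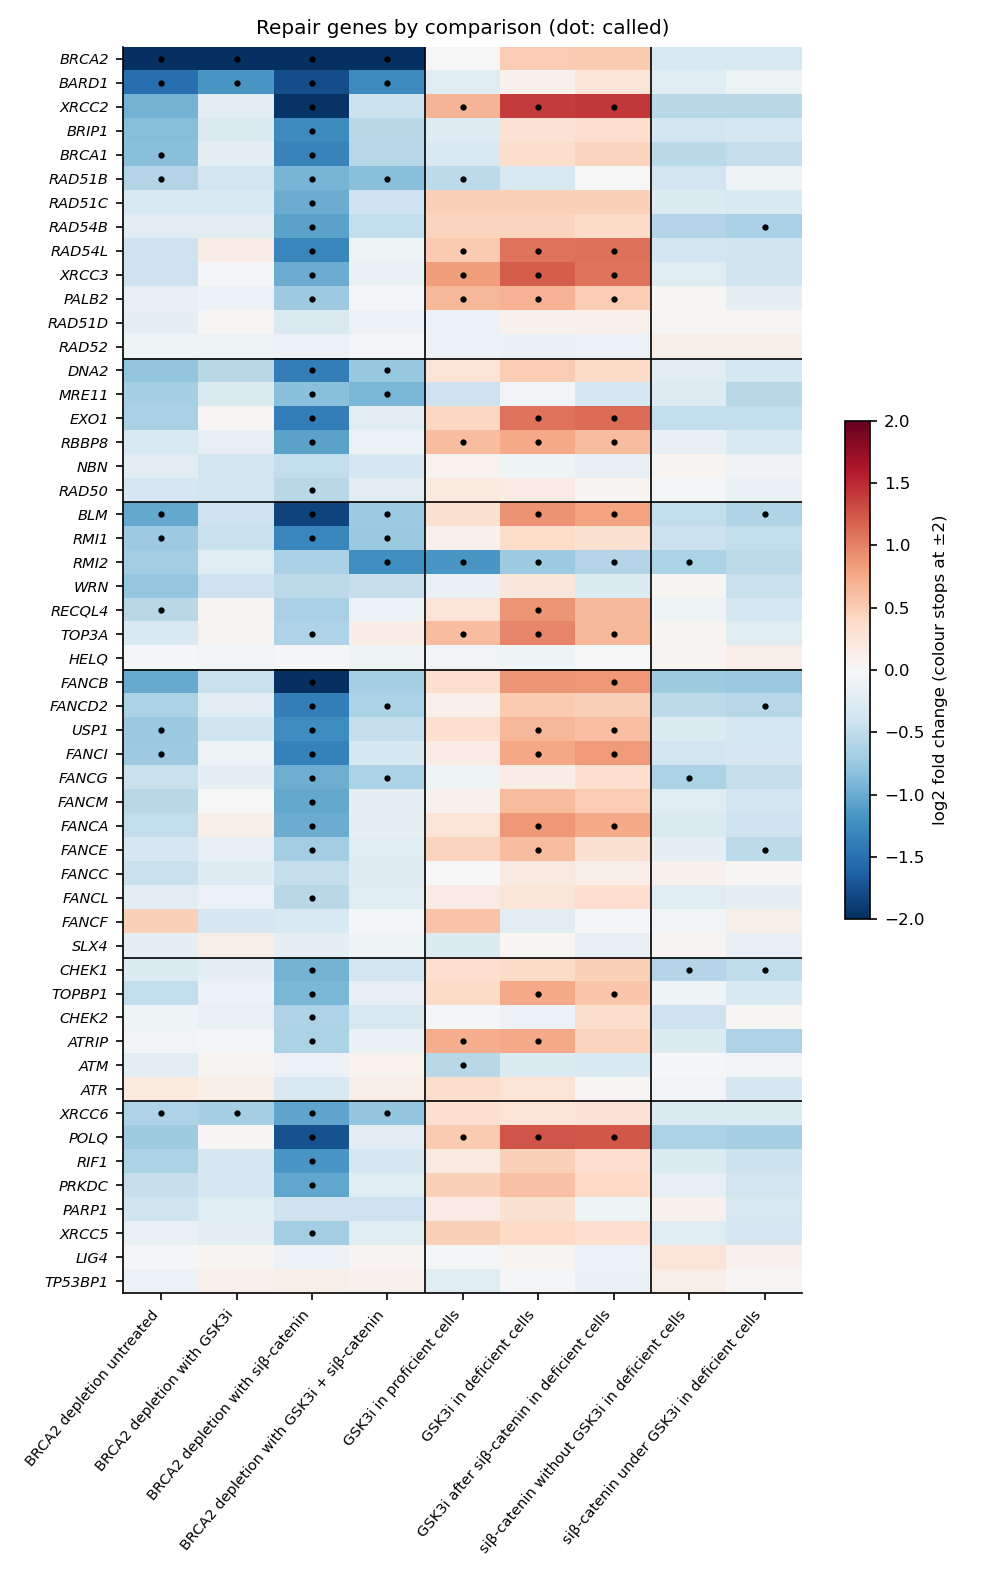
Log2 fold change (colour, stopping at ±2) of the 52 repair genes (rows, by role) in 9 comparisons (columns), with a dot where a gene was called. The 4 columns at the left are BRCA2 depletion by treatment, where BRCA2, BARD1 and XRCC6 have a dot in each; the next 3 are GSK3i and the last 2 siβ-catenin, and the siβ-catenin column of BRCA2 depletion rests on 2 libraries in doubt.

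The response to GSK3i was the next comparison, since the inhibitor was the study's means of raising β-catenin. In BRCA2-proficient cells with control siRNA 8 of the 52 were higher (11.8% of all genes) and 3 lower (14.2%). The share called in both directions together was near that of all genes, and the share called lower was below it. Without BRCA2-proficient untreated replicate 3 the counts were 3 higher and 1 lower. In BRCA2-deficient cells 16 were higher (11.6% of all genes) and 1 lower (13.8%). These comparisons share no library with each other, but each shares its untreated libraries with the comparison of BRCA2 depletion in untreated cells. All 8 genes higher in BRCA2-proficient cells were among the 16, namely ATRIP, PALB2, POLQ, RAD54L, RBBP8, TOP3A, XRCC2 and XRCC3, and RMI2 was lower in both. How far all genes called overlap between the backgrounds was not counted. The S-phase genes moved the same way, with 3 of 19 higher in BRCA2-proficient and 13 of 19 in BRCA2-deficient cells, while 5 of 20 G2/M genes were lower in the former and 5 of 20 higher in the latter.

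XRCC3, a mediator of strand exchange, had 2904 and 3175 normalised counts without and 5677, 5659 and 5091 with GSK3i in BRCA2-proficient cells. The BRCA2-deficient libraries had 2398, 2296 and 2306 without and 6053, 5010 and 5160 with GSK3i. The groups do not overlap, and the log2 fold changes were 0.83 ± 0.13 (adjusted p = 2e-09) and 1.21 ± 0.15 (adjusted p = 1.05e-14). Its overlap with KLC1 means that the gene of origin of its reads cannot be told apart. RAD54L, a DNA translocase of strand exchange, went from 1002 and 859 to 1460, 1397 and 1207 (0.53 ± 0.15) and from 655, 704 and 770 to 1604, 1541 and 1396 (1.09 ± 0.15). TOP3A went up by 0.61 ± 0.13 and 0.97 ± 0.16, and PALB2 by 0.66 ± 0.15 and 0.70 ± 0.15. PALB2 had 728, 724 and 768 with GSK3i in BRCA2-proficient and 671, 721 and 671 in BRCA2-deficient cells, all above the untreated 390 to 470.

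XRCC2 had 677 and 592 normalised counts without and 755, 1004 and 1315 with GSK3i in BRCA2-proficient cells, and 183, 324 and 496 without and 535, 1027 and 1097 with it in BRCA2-deficient cells. Its log2 fold changes were 0.68 ± 0.21 and 1.40 ± 0.36. POLQ rose by 0.53 ± 0.16 and by 1.25 ± 0.32, from 451, 646 and 1108 to 1313, 1715 and 2222 in BRCA2-deficient cells. RMI2, the small subunit of the dissolvasome, was lower in both backgrounds. It fell from 982 and 569 to 404, 349 and 292 in BRCA2-proficient (-1.17 ± 0.23) and from 475, 516 and 479 to 383, 255 and 257 in BRCA2-deficient cells (-0.72 ± 0.22). RAD51B (-0.52 ± 0.18) and ATM (-0.55 ± 0.20) were the others lower in BRCA2-proficient cells. The 8 genes called higher in BRCA2-deficient cells alone included EXO1 (1.09 ± 0.20), BLM (0.90 ± 0.22), RECQL4 (0.89 ± 0.15), FANCA (0.87 ± 0.18), FANCI (0.77 ± 0.21) and USP1 (0.66 ± 0.18). RAD52 was at -0.11 and -0.14, and BRCA1 at -0.30 and 0.35, in BRCA2-proficient and BRCA2-deficient cells.

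**Figure D5:**
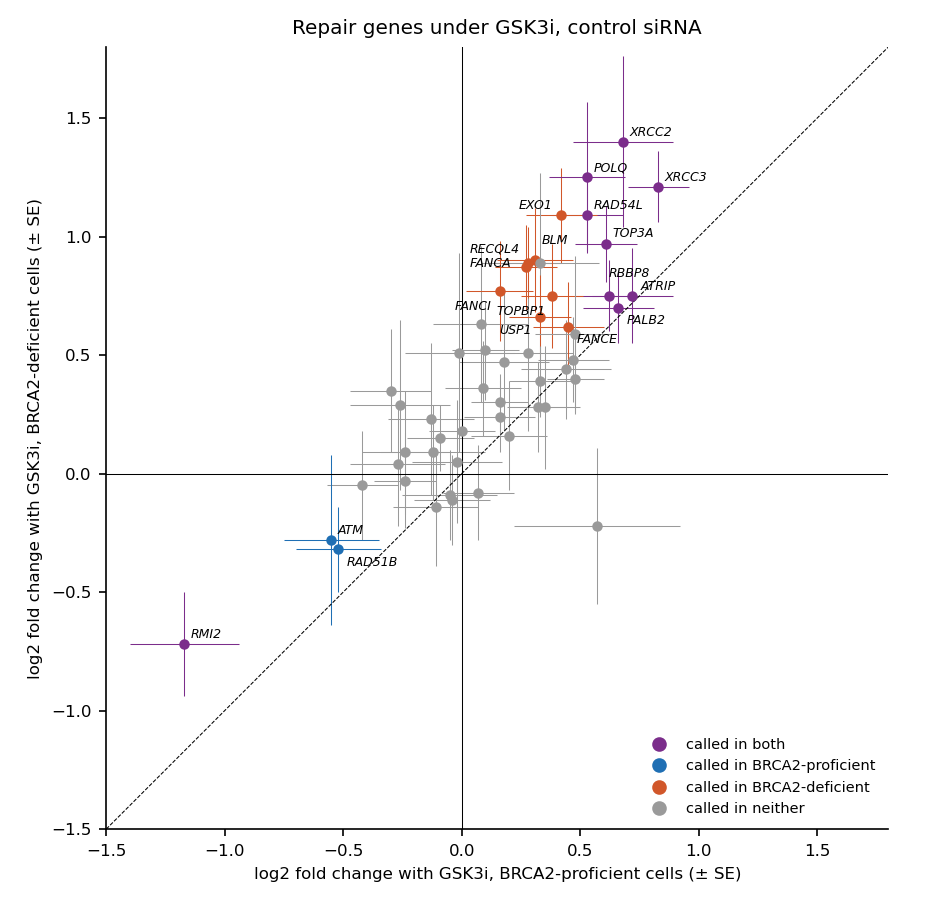
Log2 fold change with GSK3i of each of the 52 repair genes in BRCA2-proficient (x axis) and BRCA2-deficient cells (y axis), control siRNA, with SE bars and the line of equal change. Colours give where a gene was called; 8 genes at the upper right were higher in both, RMI2 at the lower left was lower in both, and the others called in BRCA2-deficient cells lie above the line.

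Whether the response differed between backgrounds was tested as an interaction. DESeq2 called 0 of the 52 (0.0288% of all genes higher and 0.00575% lower), edgeR called 0, and 7 had an unadjusted p under 0.05, each with the larger increase in BRCA2-deficient cells. Of all 17381 genes tested, 363 had a positive and 195 a negative difference at that unadjusted p. RECQL4 had the lowest adjusted p, at 0.445, with a difference of 0.59 ± 0.18 and a 95% interval of 0.24 to 0.94. A fit that paired libraries by replicate number called RECQL4, although the numbers were not taken to pair these groups. RAD54L differed by 0.55 ± 0.19 and EXO1 by 0.65 ± 0.25. XRCC2 had the highest difference, 0.71, and its interval included 0. The call of 16 genes against 8 is thus not shown to be a difference between backgrounds. Of the 52 differences, 41 were positive, where 8683 of all 17381 genes were. All 19 S-phase and all 20 G2/M differences were positive too, 9 and 12 of them at an unadjusted p under 0.05.

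GSK3i was also compared in cells with siβ-catenin. In BRCA2-deficient cells 14 of the 52 were higher (8.56% of all genes) and 1 lower (11.5%). The highest were XRCC2 (1.42 ± 0.28), POLQ (1.24 ± 0.22), EXO1 (1.12 ± 0.21), RAD54L (1.10 ± 0.23) and XRCC3 (1.09 ± 0.22), RBBP8 was at 0.62 ± 0.13, and RMI2 was lower (-0.59 ± 0.23). Of the 14, 13 were also among the 16 higher with control siRNA, which used other libraries, that is 13 of 14 and 13 of 16. FANCB was the remaining one, and ATRIP, FANCE and RECQL4 were called with control siRNA alone. The overlap among all genes called was not counted, so this overlap is not shown to be particular to the repair genes. The interaction of GSK3i with siβ-catenin in these cells called 0 of the 52 (0.149% of all genes higher, 0.337% lower) with DESeq2 and 0 with edgeR, and 1 gene had an unadjusted p under 0.05. That was PARP1, at -0.40 ± 0.11 (adjusted p = 0.0601). XRCC2 had 179, 193 and 309 normalised counts with siβ-catenin and 347, 723 and 749 with GSK3i + siβ-catenin, which do not overlap. S-phase genes moved with them, 15 of 19 higher.

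In BRCA2-proficient cells the same comparison rests on the libraries in doubt. As labelled, 0 of the 52 were called with DESeq2 (0.047% of all genes higher, 0.00588% lower) or edgeR, with 2 at an unadjusted p under 0.05. Without both libraries numbered 2, a choice made after seeing the data that leaves 1 siβ-catenin library (replicate 3, whose score lay between), 7 were called, 1 higher (3.48% of all genes) and 6 lower (3.14%). XRCC3 was higher (0.55 ± 0.13), and RMI2 (-1.18 ± 0.26), ATM (-0.85 ± 0.17), BRCA2 (-0.83 ± 0.21), BRIP1 (-0.73 ± 0.21), BRCA1 (-0.70 ± 0.19) and MRE11 (-0.68 ± 0.22) were lower. That fit assumes that the lone library varies like the others. RMI2 shows the split plainly, with 247 and 725 in the libraries labelled siβ-catenin replicates 2 and 3 and 349, 818 and 291 in those labelled GSK3i + siβ-catenin.

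Last, siβ-catenin was compared with control siRNA, to ask what β-catenin adds. Under GSK3i 0 of the 52 changed in BRCA2-proficient cells with DESeq2 or edgeR (3.18% of all genes higher, 1.92% lower), with 8 at an unadjusted p under 0.05. Here 1 library, labelled replicate 2, went against its label, and 2 were called without BRCA2-proficient GSK3i replicate 1. In BRCA2-deficient cells 5 were lower (2.57% of all genes) and 0 higher (2.95%). These were CHEK1 (-0.51 ± 0.14), RAD54B (-0.65 ± 0.18), FANCD2 (-0.57 ± 0.18), BLM (-0.60 ± 0.19) and FANCE (-0.52 ± 0.18). RAD54B, a RAD54 relative, went from 282, 241 and 235 normalised counts to 171, 154 and 160, and CHEK1 from 1755, 1820 and 1520 to 1238, 1236 and 1114, neither with overlap. With the replicate block, which pairs the libraries of these cells, 11 were lower, and these held the same 5 and XRCC2, MRE11, RMI2, FANCB, ATRIP and POLQ. edgeR called 0. Without 1 library DESeq2 called 0 (GSK3i replicate 2 or GSK3i + siβ-catenin replicate 2), 1 (GSK3i replicate 3) or 3 (GSK3i + siβ-catenin replicate 1 or 3). S-phase genes fell with them, 4 of 19, and G2/M genes, 3 of 20.

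Without GSK3i, siβ-catenin lowered 3 of the 52 in BRCA2-deficient cells (0.82% of all genes) and raised 0 (1.21%). FANCG went from 1348, 1288 and 1324 normalised counts to 839, 710 and 978 (-0.64 ± 0.17), RMI2 from 475, 516 and 479 to 335, 276 and 334 (-0.63 ± 0.17), and CHEK1 from 1196, 1369 and 1326 to 907, 963 and 713 (-0.59 ± 0.17). The groups do not overlap for any of the 3, yet edgeR called 0. With 1 library left out, DESeq2 called 0 (leaving out untreated replicate 2, or siβ-catenin replicate 1), 1 (siβ-catenin replicate 2) or 9 (untreated replicate 1). In BRCA2-proficient cells, where both siβ-catenin libraries are in doubt, 0 of the 52 were called with DESeq2 or edgeR (1.08% of all genes higher, 2.1% lower), with 8 at an unadjusted p under 0.05 2 called without siβ-catenin replicate 3 and 0 without replicate 2.

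Of 49 further repair genes, 48 were found. Over all treatments 13 of these were lower with BRCA2 depletion (7.22% of all genes) and 0 higher (11.4%). Those of lowest adjusted p were RAD17 (a clamp loader of the ATR checkpoint), BRCC3 (a deubiquitinase of the BRCA1-A complex), LIG1 (the replicative ligase), PARPBP, RPA3 (of the RPA complex that coats single strands) and MDC1 (a mediator at chromatin around breaks). The DESeq2 adjusted p of RAD17 was 4.27e-45, below the 1.76e-39 of BRCA2 itself. RAD17 and BRCC3 were lower in all 4 treatments, and FAAP100, of the Fanconi core complex, was called higher with siβ-catenin alone. FAAP100 had the highest estimate of these genes over all treatments too (0.45, under the fold limit), and was called higher there without the 2 libraries that went against their label. Without the 3 libraries 8 were lower (5.52% of all genes). With GSK3i 2 rose in BRCA2-proficient cells (CDC25A and TIPIN) and 11 of 47 in BRCA2-deficient cells, where 11.8% and 11.6% of all genes did. WEE1, a kinase that restrains CDK1, was lower in BRCA2-proficient cells, and WDR48, the partner of USP1, was lower in both.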

How the data were processed

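Raw counts of reads per gene, as deposited, were used for 22 libraries. Per the study's methods, with versions from the submitters' processing notes, the authors sequenced poly(A)-selected stranded libraries, aligned reads to GRCh37/hg19 with HISAT2 2.0.4, removed duplicates (SAMtools 1.4, Picard 1.9.2) and counted uniquely mapped reads per gene with featureCounts 1.5.0. The study's reporting summary gives other versions of HISAT2, Picard and featureCounts, and which made the counts is not known. The strand setting and Ensembl release are not given in the sources used here. Removing duplicates lowers the counts of abundant genes most.

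From the counts, each comparison was fitted alone in DESeq2 1.42.0 (R 4.3.3; Wald test, two-sided, no shrinkage), after genes that did not reach 10 counts in 3 or more libraries (2 or more in fits of 4 or 5) were dropped. BRCA2 depletion over all treatments had treatment as a covariate and took its libraries as independent. A gene was called at a Benjamini-Hochberg adjusted p below 0.05 over all genes tested and a log2 fold change beyond 0.5 in size. SE is the standard error of the log2 fold change and intervals are 95%. List levels are means of log2(normalised count + 1). Alternatives were edgeR 4.0.16 (quasi-likelihood), TMM size factors, no low-count filter, no minimum fold, 1 model over the 8 groups, a replicate block, and leaving out each library.

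The 52 genes, their role groups and the other lists were chosen with earlier results of these data known. BRCA2, its partners and the back-up genes RAD52, POLQ and PARP1 were always given, members called were named (the 6 of lowest adjusted p where more were), and values by library were given for those called most often. Other names were chosen after their values were seen. FBXO18 and UHRF1 of the pathway and S-phase lists, and CD3E, HBB and PECAM1 of the cell-type markers, were not matched in the table.

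Same-numbered libraries deviated together within BRCA2-deficient cells (18 correlations of deviations from group means, 0.125 to 0.674), so numbers were taken to pair these libraries, from the data and not from the labels. Elsewhere 53 such correlations ran from -0.336 to 0.423 (median 0.12), against -0.374 to 0.336 (median -0.0682) for 104 pairs with different numbers. The lowest was between the libraries labelled BRCA2-proficient siβ-catenin replicate 2 and GSK3i + siβ-catenin replicate 2, both in doubt. The numbers were not taken to pair there, and some pairing across these groups remains possible. A gene of the pathway list is not reported here.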

Additional observations from a re-analysis of the deposited data

How the results depend on the processing

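In 15 comparisons 132 calls of a repair gene were made, and 1774 alternative fits of them kept 1569, lost 205 and reversed 0. Lost calls were not tested for their cause. The number of the 52 called under BRCA2 depletion over all treatments (20) was 13 without the 3 libraries in doubt, 21 without the 2 that went against their label, 9 with control siRNA only, 40 with no minimum fold change and 17 to 23 with 1 library left out. Untreated (10), it was 2 with edgeR and 2 to 25 with 1 left out. With GSK3i + siβ-catenin (11), it was 6 with edgeR and 7 to 12 with 1 left out. For GSK3i in BRCA2-proficient cells (11), it was 7 in 1 model over all groups, 21 with no minimum fold change and 4 to 11 with 1 left out. For siβ-catenin under GSK3i in BRCA2-deficient cells (5), it was 3 with TMM, 0 with edgeR, 10 with no minimum fold change, 11 with the replicate block and 0 to 7 with 1 left out, and in BRCA2-proficient cells (0) it was 0 to 2 with 1 left out. For siβ-catenin without GSK3i, it was 0 with edgeR and 0 to 9 with 1 left out in BRCA2-deficient cells (3), and 1 with TMM, 2 in 1 model and 0 to 2 with 1 left out in BRCA2-proficient cells (0). For GSK3i after siβ-catenin in BRCA2-proficient cells (0), it was 7 without both libraries numbered 2. The replicate block called 1 gene, RECQL4, in the interaction of BRCA2 depletion and GSK3i, where the numbers were not taken to pair, and moved no other count by more than 1.5 times. Leaving out libraries for their label and fitting control siRNA alone were chosen after seeing the data. Groups of 2 or 3 libraries limit the comparisons by treatment more than depth does for all but the lowest genes such as FANCF.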
